A study of Homo sapiens with 14 samples.

Results

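The genes described here are CTCF and 9 genes of the cohesin complex, namely RAD21, SMC1A, SMC3, STAG1, STAG2, NIPBL, WAPL, PDS5A and PDS5B. They were chosen by name, as 10 of the 54628 gene symbols in the count files, and all 10 passed the filter on low counts. The study sequenced RNA of IMR90, a human lung fibroblast line, in 14 libraries. Levels are in CPM, which scales each count by the sum over all genes of the library.

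Each of 7 groups held 2 libraries. WT cells were untreated, and siHMGB2 cells were untreated cells in which HMGB2 was knocked down with siRNA. The other 5 groups shared treatment with 10 µM inflachromene (ICM) for up to 6 days, which was used to induce senescence. ICM 1 and 2 were treated only, and the libraries labelled siSRRM2 and siBANF1 had in addition a knockdown of SRRM2 or BANF1. ICM 3 and 4 were treated only, and siCTCF 1 and 2 were treated cells with CTCF knocked down. These last 4 libraries are titled in another form than the first 10, so siCTCF 1 was set against ICM 3 and siCTCF 2 against ICM 4, although no label pairs them. The titles give IMR90 for all libraries, whereas the cell line field of these 4 counts upward from IMR91, 1 number for each library. No untreated library carries labels of that form, so treatment and set cannot be told apart when ICM 3 and 4 are compared with WT. The cells came from more than 1 isolate of the line, which the labels do not assign to libraries, and the labels do not say whether replicates were separate cultures. The p-values therefore measure only the spread between these libraries, which may be technical.

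Cohesin is a ring of SMC1A, SMC3 and the kleisin RAD21, to which STAG1 or STAG2 binds. NIPBL loads the ring and drives the extrusion of DNA loops, WAPL releases it, and PDS5A and PDS5B bind RAD21 and take part in both release and retention. CTCF is a zinc finger protein that binds DNA and stops extruding cohesin, so that loops and domains end at its sites. In fibroblasts these proteins are made in dividing and non-dividing cells alike, while several cofactors that hold sister chromatids together are made mainly in cycling cells.

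The libraries were uneven. Gene counts ranged from 33561766 to 41168932 in WT and siHMGB2, from 39435430 to 58257456 in ICM 1 and 2 and the libraries labelled siSRRM2 and siBANF1, and from 22336161 to 26779027 in ICM 3 and 4 and siCTCF. Reads in no gene made up 26.5% to 41.8% of the libraries in ICM 1 and 2 and those labelled siSRRM2 and siBANF1, and 12.8% to 18.0% of the other 8. Small structured RNAs, such as snRNAs and snoRNAs, took 3.19% to 6.06% of gene counts in the former and 0.00515% to 0.00812% in the latter. ICM 1 and ICM 2 differed by a root mean square of 1.07 on the log2 scale over 9202 genes, and siBANF1 1 and 2 by 1.12, against 0.196 between the WT libraries and 0.0883 between the libraries labelled siSRRM2. ICM 3 and siCTCF 1 differed by 0.208 and ICM 4 and siCTCF 2 by 0.144, less than the 0.511 between ICM 3 and ICM 4. HMGB2 had 27.7 and 28.0 CPM in WT and 3.18 and 3.52 CPM in siHMGB2. SRRM2 had 238 and 112 CPM in ICM 1 and 2, 76.1 and 76.4 CPM in libraries labelled siSRRM2, and 59.0 and 17.0 CPM in those labelled siBANF1. BANF1 had 13.5 and 32.7 CPM in ICM 1 and 2, 34.2 and 33.3 CPM in libraries labelled siSRRM2, and 17.0 and 36.7 CPM in those labelled siBANF1. Under neither label was it lower than in the same-numbered ICM library. The submitters' file names for these 4 libraries give the other of the 2 knockdowns, so the groups may be exchanged. The labels were followed, and each direction stated for these libraries depends on that. Of 10 fibroblast markers, 8 to 10 were above 10 CPM in each library, and their summed level ranged from 22513 to 41252 CPM in WT and siHMGB2 and from 1847 to 16868 CPM in the 10 treated libraries. Of 12 epithelial, endothelial and leukocyte markers, 10 or 11 were under 1 CPM in each library. KRT5, SFTPC, CD3E and MS4A1 were at 0 in all 14, VWF reached at most 1.63 CPM, and CD68, a lysosomal protein, had 39.1 to 104 CPM.

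Promoter sequence was available for 9 of the genes from RefSeq (GRCh38.p14), as a window around each start site. Stretches of 30 bases with letters of the CTCF motif are shown because CTCF itself was the siRNA target in 1 group of libraries. The capitals mark the match, and each stretch runs 5′ to 3′ along the gene's own strand. The longer motif, made of CCA, NN, AG, NN and GGC in that order and searched on both strands, was found in 2.49% of 27305 promoters and in 1 of the 9 genes, STAG1, at 2 places.
STAG1, chr3:136752398-136752427, minus strand: gcaccgcggCCAGCAGAGGGCggtccggac
STAG1, chr3:136752340-136752369, minus strand: tggaaaatgCCACCAGATGGCgggttagga
The first of these matches begins 40 bases before the start site and the second lies 19 bases into the transcribed side. The shorter motif AGNGGGCG was found in 15.6% of promoters and in 5 of the 9 genes, which were STAG1, PDS5A, WAPL, PDS5B and CTCF. In STAG1 it overlaps the first match of the longer motif. The match in PDS5B lies 91 bases before the start site, and CTCF holds 2 matches in reverse orientation, at 154 and 75 bases before its start. Distances are counted from the RefSeq start of each window, which for CTCF lies inside the GENCODE span given below.
PDS5B, chr13:32586350-32586379, plus strand: gtctggtcggcAGGGGGCGctgcgcaccca
CTCF, chr16:67562361-67562390, plus strand: tgacgccatcgCGCCCGCTtttgaaagttg
CTCF, chr16:67562440-67562469, plus strand: ctttcctccccCGCCCTCTactcgccgccc
The motif GCCATNTT of YY1, another zinc finger protein found at promoters, was in 6.82% of promoters and in 3 of the 9 genes, SMC3, PDS5B and CTCF.
SMC3, chr10:110567676-110567705, plus strand: ccacgagcgccGCCATTTTgtttggctgag
CTCF, chr16:67562542-67562571, plus strand: accgcgccgccGCCATTTTgtgtctgagcc
These matches describe the letters of the windows and not binding, which was not measured in these libraries.

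Every one of the genes was well counted, with 615 to 12517 reads per gene and library. Per kilobase of exon, averaged over the 14 libraries, RAD21 stood highest at 18.8 ± 3.84 CPM per kb (SD, n = 14), followed by STAG2 at 18.1, WAPL at 16.7, SMC3 at 14.5, STAG1 at 12.7, PDS5A at 11.4, NIPBL at 8.46, CTCF at 6.14, SMC1A at 5.63 and PDS5B at 4.09 CPM per kb. The middle of this order depends on the gene length used. With the longest transcript in place of all exons, PDS5A moved from rank 6 to rank 3 and SMC1A from rank 9 to rank 10, while RAD21 and STAG2 stayed at ranks 1 and 2. The levels of neighbours in this order overlapped across libraries. WAPL ranked 5 in WT and 1 in ICM 3 and 4, siCTCF and the libraries labelled siSRRM2. SMC1A ranked 6 in WT and 10 in ICM 1 and 2 and in libraries labelled siSRRM2.

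**Figure D1:**
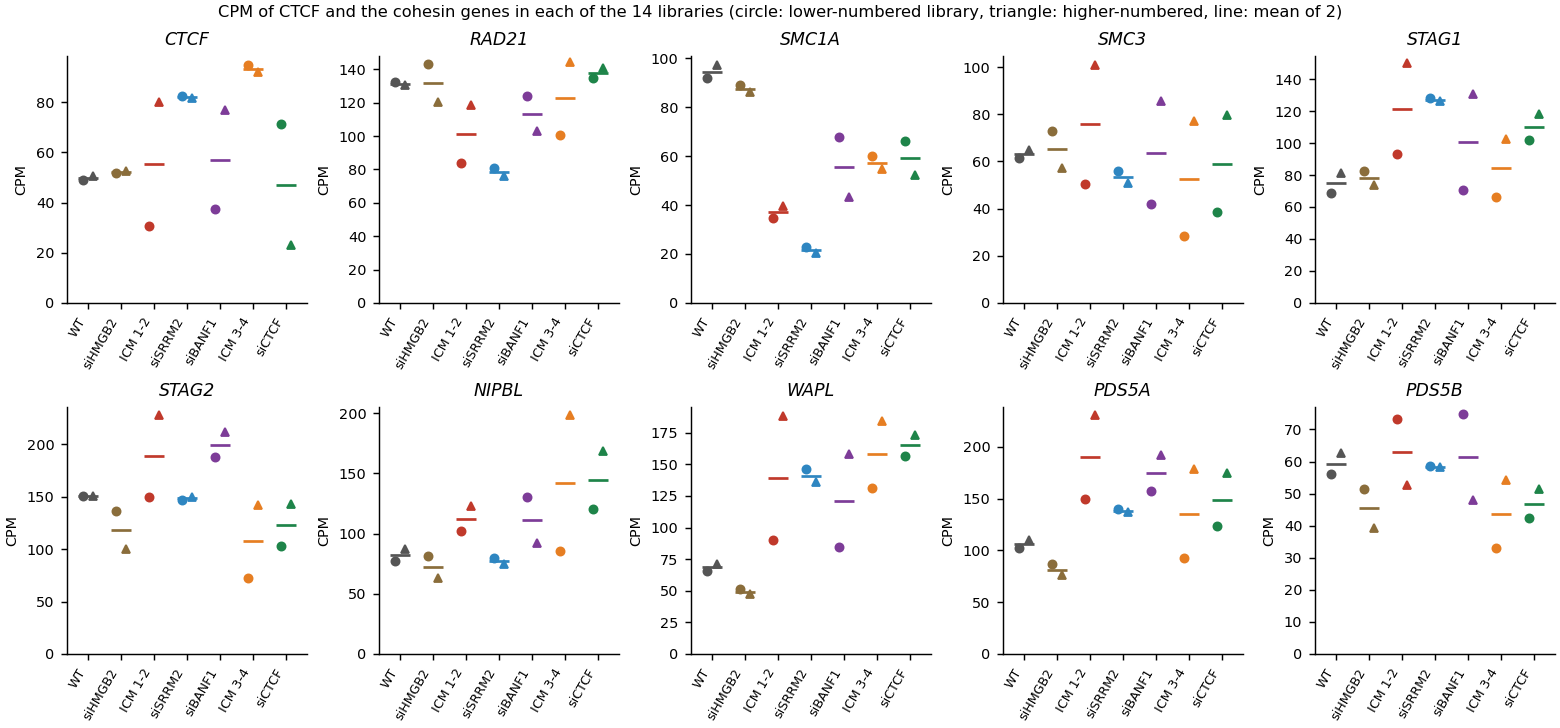
CPM of each gene (y axis, from 0) in the 2 libraries of each of the 7 groups (x axis), with circles for the lower-numbered library, triangles for the higher-numbered and a line at their mean. SMC1A is lower in all 10 treated libraries than in WT, WAPL is higher in all 10, and the 2 libraries of ICM 1-2, siBANF1 and ICM 3-4 lie far apart for several genes.

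CTCF (ENSG00000102974, chr16:67562407-67639185, plus strand) was the only gene of the 10 that was lower in both siCTCF libraries than in both ICM libraries of its set. It had 94.9 CPM in ICM 3 and 91.9 CPM in ICM 4, and 71.5 CPM in siCTCF 1 and 23.0 CPM in siCTCF 2. The 95% exact Poisson intervals, which cover counting error only, were 91.0 to 98.9 and 88.2 to 95.7 CPM for the controls, and 68.0 to 75.1 and 21.2 to 24.9 CPM for the knockdowns. The knockdown libraries were thus unequal, at 75.4% of ICM 3 and 25.0% of ICM 4.

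Mean CTCF was 93.4 ± 2.09 CPM in ICM 3 and 4 and 47.2 ± 34.3 CPM in siCTCF (SD, n = 2 each), and siCTCF 1 and 2 differed from each other by more than these means did. In the fit to all 14 libraries the log2 fold change was -0.96 (SE 0.52), with an unadjusted p of 0.0951 and an adjusted p of 1 by edgeR's quasi-likelihood test, lower in both pairs. Its 95% interval ran from -2.11 to 0.20. Without siCTCF 1 the log2 fold change was -2.09 and without siCTCF 2 it was -0.33, again with adjusted p-values of 1 by edgeR's quasi-likelihood test. In each such fit, here and for the other genes, the library left alone is assumed to vary like those of the other groups. With no replicate block, no gene of the 19126 was called in this comparison, and 125 had an unadjusted p under 0.05. The DESeq2 Wald test also gave CTCF an adjusted p of 1, with a log2 fold change of -0.96. After scaling, and among 9202 genes that averaged 10 CPM or more, 1 other gene was at or under the CTCF ratio in both pairs, RIPOR3-AS1, which was looked up after its values were seen. Taken singly, 142 of 9196 genes with a ratio stood lower than CTCF in siCTCF 1 against ICM 3. In siCTCF 2 against ICM 4, 7 of 9188 did.

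Measured against untreated cells, the knockdown did not bring CTCF to a common level. CTCF had 49.2 and 50.7 CPM in WT and 51.9 and 52.5 CPM in siHMGB2. Relative to the WT mean, siCTCF 1 stood at 143% and siCTCF 2 at 46.0%. ICM 1 and siBANF1 1, which carry no CTCF siRNA, stood at 61.3% and 75.2%, below WT and below siCTCF 1. The other treated libraries without that siRNA, ICM 2, siBANF1 2, both labelled siSRRM2, ICM 3 and ICM 4, lay between 154% and 189.9%. With scaling by TMM in place of total counts the values for siCTCF 1 and 2 were 126% and 37.3%.

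CTCF thus had unlike levels in ICM libraries of the same label. In ICM 1 and 2 it had 30.6 and 80.0 CPM, 1 below and 1 above WT, and the log2 fold change against WT was -0.02 (SE 0.52), with a 95% interval from -1.16 to 1.12. Both values of ICM 3 and 4 lay above WT, and the log2 fold change was 0.66 (SE 0.52, adjusted p = 0.346 by edgeR's quasi-likelihood test), higher in 2 of 2 libraries. When only these 4 libraries entered the fit, it was 0.71 with an adjusted p of 0.00997 by the same edgeR test, and CTCF was called, as were 47.0% of all genes tested in that fit. In the fit to all libraries, the CTCF difference between the 2 ICM sets was 0.68 (SE 0.52, adjusted p = 0.368 by edgeR's quasi-likelihood test) and was not called.

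Exons that make up 13.0% of the CTCF exon bases overlap AC009095.1 on the other strand. Whether reads were counted by strand is not given in the sources used here, so reads of such pairs may not be told apart. The same share was 21.2% for STAG1, which overlaps PCCB, 14.2% for RAD21, 3.29% for STAG2, 0.372% for SMC1A and 0 for the remaining genes. Pseudogenes of RAD21 and SMC3 were at no more than 0.716 and 0.134 CPM.

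None of the 9 cohesin genes stood as low as CTCF in either pair. In siCTCF 1 all 9 stood above ICM 3, from 110.0% for SMC1A to 155% for STAG1. In siCTCF 2 they stood between 85.2% of ICM 4 for NIPBL and 115% for STAG1. Of 9196 genes averaging 10 CPM or more, 93 stood higher than STAG1 in siCTCF 1 against ICM 3, and 2387 higher than SMC1A. The share of all genes above ICM 3 in siCTCF 1 is not given here. STAG1 was the highest of the 9 in both pairs. It had 66.0 and 103 CPM in ICM 3 and 4 and 102 and 118 CPM in siCTCF 1 and 2. Its groups overlapped by less than 1 CPM, and its log2 fold change was 0.39 (95% interval -0.25 to 1.04, adjusted p = 1 by edgeR's quasi-likelihood test).

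None of the 9 passed the test, and fitted log2 fold changes ran from 0.04 for NIPBL to 0.39 for STAG1. The intervals are wide. That of SMC3 ran from -0.87 to 1.20 and that of RAD21 from -0.35 to 0.70, so changes of that size remain possible. In CPM, CTCF was 1 of the 10 genes with no overlap between siCTCF and ICM 3 and 4, where 9.55% of all genes tested were lower and 7.52% higher without overlap.

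**Figure D2:**
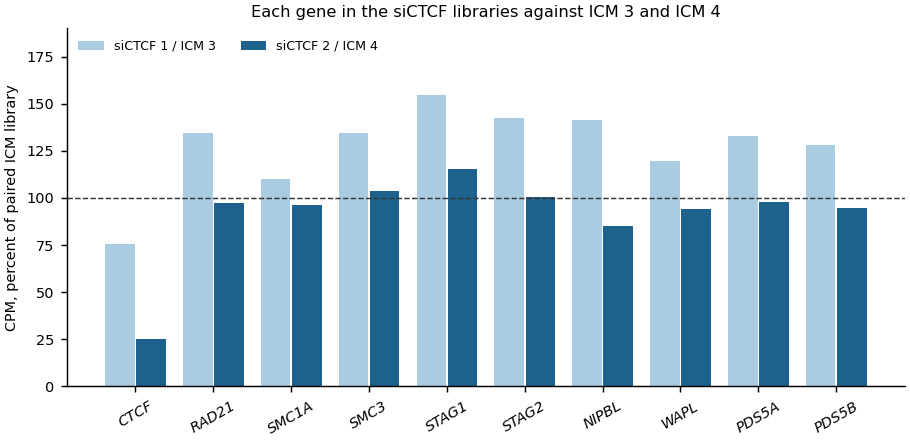
CPM in each siCTCF library as a percent of its paired ICM library (y axis, from 0), for the 10 genes (x axis), with light bars for siCTCF 1 against ICM 3, dark bars for siCTCF 2 against ICM 4 and a dashed line at 100 percent. CTCF stands at 75.4% and 25.0%, and the 9 cohesin genes stand between 85.2% and 155%.

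Among the subunits of the ring, SMC1A fell with ICM in both comparisons with WT. SMC1A (ENSG00000072501, chrX:53374149-53422728, minus strand), which forms the arm of the ring opposite SMC3, had 91.9 and 97.0 CPM in WT. It had 34.9 and 39.7 CPM in ICM 1 and 2 and 60.2 and 54.6 CPM in ICM 3 and 4. All treated libraries lay below both WT libraries, from 20.5 to 67.8 CPM.

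The log2 fold change of SMC1A was -1.48 (SE 0.28, adjusted p = 0.00819 by edgeR's quasi-likelihood test) in ICM 1 and 2 against WT, lower in 2 of 2 libraries. It was the only 1 of the 10 genes called in that comparison, where 6.87% of all 19126 genes tested were called lower and 6.63% higher. In ICM 3 and 4 against WT the log2 fold change was -0.96 (SE 0.28, adjusted p = 0.0259 by edgeR's quasi-likelihood test), where 16.0% of all genes were called lower and 14.3% higher. These shares are large, so 1 gene in 10 is near what all genes gave. ICM 1 and 2 also differed from WT in reads in no gene and in small RNAs, as given above, whose part in this result was not tested. ICM 3 and 4 had a small RNA share as low as that of WT. The direction stayed the same in each alternative run, but the calls did not. With the 4 compared libraries alone, a fit that called 0.173% of all genes, the first comparison gave an adjusted p of 0.107, and without WT 1 or WT 2 it gave 0.0514 or 0.0591, by edgeR's quasi-likelihood test. The second gave 0.0511 with scaling by total counts, and 0.0883, 0.113, 0.0689 and 0.137 without WT 1, WT 2, ICM 3 and ICM 4 by the same edgeR test. In the fit to ICM 3 and 4 and WT alone, SMC1A was called at -0.91 (SE 0.17, adjusted p = 0.00394 by edgeR's quasi-likelihood test). That fit called 47.0% of all genes. The SMC1A difference between the 2 ICM sets, 0.52 (SE 0.27, adjusted p = 0.194 by edgeR's quasi-likelihood test), did not pass.

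The further knockdowns placed SMC1A on either side of ICM 1 and 2. It had 22.7 and 20.5 CPM in libraries labelled siSRRM2, the lowest of all 14, and both lay below ICM 1 and 2. It had 67.8 and 43.1 CPM in those labelled siBANF1, and both lay above. The log2 fold changes were -0.79 (SE 0.28, unadjusted p = 0.0156, adjusted p = 0.304) and 0.63 (SE 0.27, unadjusted p = 0.0431, adjusted p = 1) by edgeR's quasi-likelihood test, so neither was called. Of all genes tested, 34 (0.178%) were called for libraries labelled siSRRM2 and 0 for those labelled siBANF1, where 591 had an unadjusted p under 0.05 and the DESeq2 Wald test called 17. In siHMGB2 it had 89.0 and 86.1 CPM, just below WT, with a log2 fold change of -0.05 (95% interval -0.66 to 0.55).

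SMC3 (ENSG00000108055, chr10:110567691-110604636, plus strand), the partner of SMC1A, followed the replicate more than the group. It had 61.4 and 64.9 CPM in WT and 72.9 and 57.3 CPM in siHMGB2. In the treated groups it had 50.6 and 101 CPM in ICM 1 and 2, 41.9 and 85.6 CPM in siBANF1, 28.5 and 76.9 CPM in ICM 3 and 4, and 38.4 and 79.6 CPM in siCTCF. The second library was 2.00 to 2.7 times the first in these 4 groups, so each of them spanned the WT values. The libraries labelled siSRRM2 alone were alike, at 55.8 and 51.1 CPM. No comparison of SMC3 was called, and its 95% interval in ICM 1 and 2 against WT ran from -0.93 to 1.14 on the log2 scale.

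The ratio of SMC1A to SMC3 per kilobase, which does not depend on library scaling, was 0.610 in both WT libraries. It was 0.281 and 0.160 in ICM 1 and 2 and 0.166 and 0.164 in libraries labelled siSRRM2, below WT in all 4. In the other treated groups it divided by library, at 0.661 and 0.205 in siBANF1, 0.862 and 0.289 in ICM 3 and 4, and 0.704 and 0.268 in siCTCF. An exact permutation test of 2 against 2 libraries cannot give a p under 0.333, and no test was run on these ratios.

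RAD21 (ENSG00000164754), the kleisin that closes the ring and is cut by separase at mitosis, had 132 and 131 CPM in WT. It had 83.8 and 119 CPM in ICM 1 and 2 and 80.7 and 76.1 CPM in libraries labelled siSRRM2, all below WT. It had 124 and 103 CPM in siBANF1, 101 and 145 CPM in ICM 3 and 4, 135 and 141 CPM in siCTCF and 143 and 121 CPM in siHMGB2. RAD21 varied least of the 10 genes, by 1.90-fold between its lowest and highest library. Its log2 fold change in ICM 1 and 2 against WT was -0.52 (SE 0.24, adjusted p = 0.164 by edgeR's quasi-likelihood test) and was not called.

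WAPL (ENSG00000062650, chr10:86435256-86521815, minus strand), which releases cohesin from chromatin, moved opposite to SMC1A. It had 66.0 and 71.1 CPM in WT, 89.8 and 188 CPM in ICM 1 and 2, and 132 and 185 CPM in ICM 3 and 4. All treated libraries lay above both WT libraries, the lowest being siBANF1 1 at 84.6 CPM. It stood at 146 and 136 CPM in libraries labelled siSRRM2, 158 CPM in siBANF1 2, and 157 and 173 CPM in siCTCF.

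In ICM 3 and 4 against WT the WAPL log2 fold change was 0.96 (SE 0.32, adjusted p = 0.0460 by edgeR's quasi-likelihood test), higher in 2 of 2 libraries. With 1 of the 4 libraries left out it was not called, with adjusted p-values of 0.175, 0.154, 0.0761 and 0.199 without WT 1, WT 2, ICM 3 and ICM 4 by edgeR's quasi-likelihood test. With only these 4 libraries in the fit the adjusted p was 0.00428 by the same edgeR test, and 47.0% of all genes were called. The fit to all 14 libraries called 14.3% of all genes higher and 16.0% lower in this comparison. In ICM 1 and 2 the log2 fold change was 0.86 (SE 0.32, adjusted p = 0.0996 by edgeR's quasi-likelihood test) and was not called. There ICM 1 and ICM 2 stood far apart, and the log2 fold change was 1.25 without ICM 1 (adjusted p = 0.0221, edgeR) and 0.33 without ICM 2 (adjusted p = 0.524, edgeR). The DESeq2 Wald test with all libraries gave 0.91 with an adjusted p of 0.0354.

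HMGB2 knockdown in untreated cells was the only condition with WAPL below WT, at 51.1 and 47.7 CPM. Both libraries lay below WT, with a log2 fold change of -0.42 (SE 0.32, adjusted p = 1 by edgeR's quasi-likelihood test) in the fit to all libraries, in which 0 of 19126 genes were called and 908 had an unadjusted p under 0.05. DESeq2 called 73 genes there, none of the 10. In the fit to WT and siHMGB2 alone the value was -0.41 (SE 0.14) with an adjusted p of 0.0390 by edgeR's quasi-likelihood test, and WAPL was the only 1 of the 10 genes called. That fit called 4.71% of all genes lower and 6.03% higher. HMGB2, the siRNA target, was itself not called in the fit to all libraries, at -3.00 (adjusted p = 0.201 by edgeR's quasi-likelihood test). In the fit to WT and siHMGB2 alone HMGB2 had an adjusted p of 1.68e-17 by the same edgeR test. An uncalled gene in the fit to all libraries is therefore no sign that a change is absent. The treated libraries thus stood above WT and the siHMGB2 libraries below it for WAPL.

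NIPBL (ENSG00000164190, chr5:36876759-37066413, plus strand), which loads cohesin, had 77.3 and 87.5 CPM in WT and 81.6 and 63.3 CPM in siHMGB2. It had 102 and 123 CPM in ICM 1 and 2 and 85.5 and 198 CPM in ICM 3 and 4, where the first value lay within the WT range. It had 79.6 and 74.3 CPM in libraries labelled siSRRM2, below both of their controls, and 130.3 and 92.0 CPM in siBANF1 and 121 and 169 CPM in siCTCF. NIPBL was called in none of the 7 comparisons. Its log2 fold change in ICM 3 and 4 against WT was 0.52 (SE 0.35, adjusted p = 0.268 by edgeR's quasi-likelihood test) and turned to -0.12 without ICM 4.

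The ratio of WAPL to NIPBL per kilobase was 1.48 and 1.41 in WT and 1.08 and 1.31 in siHMGB2. It was above WT in 9 of the 10 treated libraries, at 1.53 to 3.18, and below in siBANF1 1 at 1.13. The highest ratios were those of the libraries labelled siSRRM2, both at 3.18.

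The STAG proteins bind RAD21 and are alternatives to each other, STAG1 being found more at CTCF sites and STAG2 also at enhancers. STAG1 (ENSG00000118007, chr3:136336233-136752403, minus strand) had 68.7 and 81.5 CPM in WT and 92.9 and 150.2 CPM in ICM 1 and 2, both above WT. It had 66.0 and 103 CPM in ICM 3 and 4, on either side of WT. It had 128 and 126 CPM in libraries labelled siSRRM2, 70.6 and 131 CPM in siBANF1 and 82.5 and 73.5 CPM in siHMGB2. No comparison of STAG1 was called, and the log2 fold change in ICM 1 and 2 against WT was 0.54 (SE 0.29, adjusted p = 0.236 by edgeR's quasi-likelihood test).

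STAG2 (ENSG00000101972, chrX:123960212-124422664, plus strand) stood lower in the second ICM set than in the first. It had 151 CPM in both WT libraries, 149.7 and 228 CPM in ICM 1 and 2, and 72.6 and 143 CPM in ICM 3 and 4. Both libraries of the second set lay below both of the first. The difference between the sets was -0.92 (SE 0.30) with an adjusted p of 0.0547 by edgeR's quasi-likelihood test, just short of the threshold, where 11.0% of all genes were called lower and 8.53% higher. It passed with relative log expression scaling (adjusted p = 0.0459, edgeR), with a filter of 1 CPM (0.0460, edgeR), by the DESeq2 Wald test (0.0157) and without ICM 4 (-1.39, adjusted p = 0.0328, edgeR). It did not pass in the fit to these 4 libraries alone (adjusted p = 0.278, edgeR), with total count scaling (-0.81, 0.12), with no filter (0.0538), or without ICM 1 (-1.13, 0.0659), ICM 2 (-0.68, 0.145) or ICM 3 (-0.56, 0.283).

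Against WT, STAG2 had a log2 fold change of 0.18 in ICM 1 and 2 and of -0.75 in ICM 3 and 4 (adjusted p = 0.0818 by edgeR's quasi-likelihood test). Without ICM 4 the latter was -1.23 with an adjusted p of 0.0388 by edgeR's quasi-likelihood test, and without ICM 3 it was -0.38. In the other groups STAG2 had 137 and 99.9 CPM in siHMGB2, 147 and 150.0 CPM in libraries labelled siSRRM2, 188 and 212 CPM in siBANF1, and 103 and 143 CPM in siCTCF.

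The STAG2 share of STAG1 plus STAG2, per kilobase, lay below both WT libraries in every treated group but siBANF1. It was 67.8% and 63.9% in WT, a mean of 65.9% ± 2.78 (SD, n = 2), and 61.4% and 56.6% in siHMGB2. It was 60.7% and 59.2% in ICM 1 and 2, 51.3% and 57.1% in ICM 3 and 4, and 52.4% and 53.2% in libraries labelled siSRRM2. In siCTCF it was 49.2% and 53.7%, each below its paired ICM library. In siBANF1 it was 71.8% and 60.7%, on either side of the WT values. The 95% Wilson interval of the share in raw counts extended at most 1.70 percentage points to either side, so counting error is smaller than most of these differences. No test was run on the shares.

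**Figure D3:**
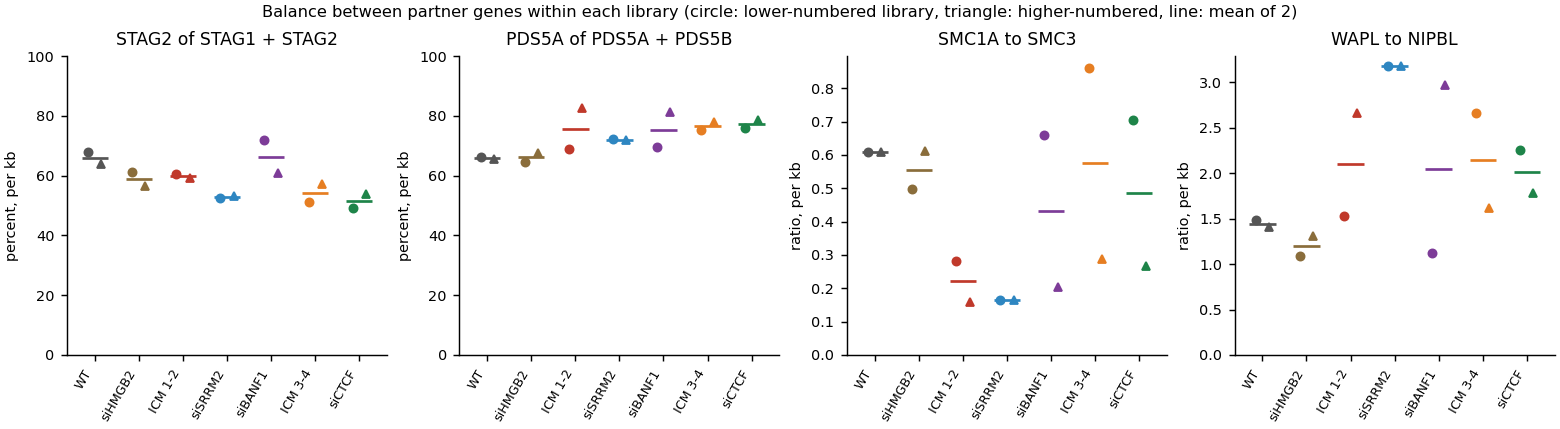
The share of STAG2 in STAG1 plus STAG2, the share of PDS5A in PDS5A plus PDS5B (both in percent) and the ratios of SMC1A to SMC3 and WAPL to NIPBL (y axes, all per kilobase and from 0) in the libraries of the 7 groups (x axis), with circles for the lower-numbered library, triangles for the higher-numbered and a line at their mean. The STAG2 share is 63.9% to 67.8% in WT and 49.2% to 53.7% in siCTCF, and the SMC1A to SMC3 ratio divides by library in siBANF1, ICM 3-4 and siCTCF.

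The PDS5 proteins bind the kleisin beside the STAG subunit. PDS5A (ENSG00000121892, chr4:39822863-39977956, minus strand) had 102 and 110.1 CPM in WT and 149 and 231 CPM in ICM 1 and 2, both above WT. It had 92.9 and 178 CPM in ICM 3 and 4, on either side of WT. It was lowest in siHMGB2, at 86.6 and 76.0 CPM. The log2 fold change in ICM 1 and 2 against WT was 0.69 (SE 0.29, unadjusted p = 0.0362, adjusted p = 0.134 by edgeR's quasi-likelihood test) and was not called. In the remaining groups PDS5A ranged from 124 to 192 CPM.

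PDS5B (ENSG00000083642, chr13:32586427-32778019, plus strand), the paralog, had 56.1 and 62.5 CPM in WT and 51.5 and 39.2 CPM in siHMGB2. It had 73.3 and 52.6 CPM in ICM 1 and 2, on either side of WT, and 33.0 and 54.3 CPM in ICM 3 and 4, both below. It had 58.5 and 58.4 CPM in libraries labelled siSRRM2, 74.9 and 48.1 CPM in siBANF1 and 42.3 and 51.5 CPM in siCTCF. The log2 fold change in ICM 3 and 4 against WT was -0.70 (SE 0.32, adjusted p = 0.12 by edgeR's quasi-likelihood test).

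The PDS5A share of the pair, per kilobase, was 66.3% and 65.6% in WT and 64.5% and 67.7% in siHMGB2. It was higher in each of the 10 treated libraries, from 68.8% in ICM 1 to 82.6% in ICM 2. In ICM 3 and 4 it was 75.3% and 78.1% and in siCTCF 76.0% and 78.6%, so the knockdown libraries lay less than 1 percentage point from their paired controls. It was 72.2% and 71.8% in libraries labelled siSRRM2 and 69.4% and 81.2% in siBANF1. The 95% Wilson interval of the share in raw counts extended at most 1.57 percentage points to either side.

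**Figure D4:**
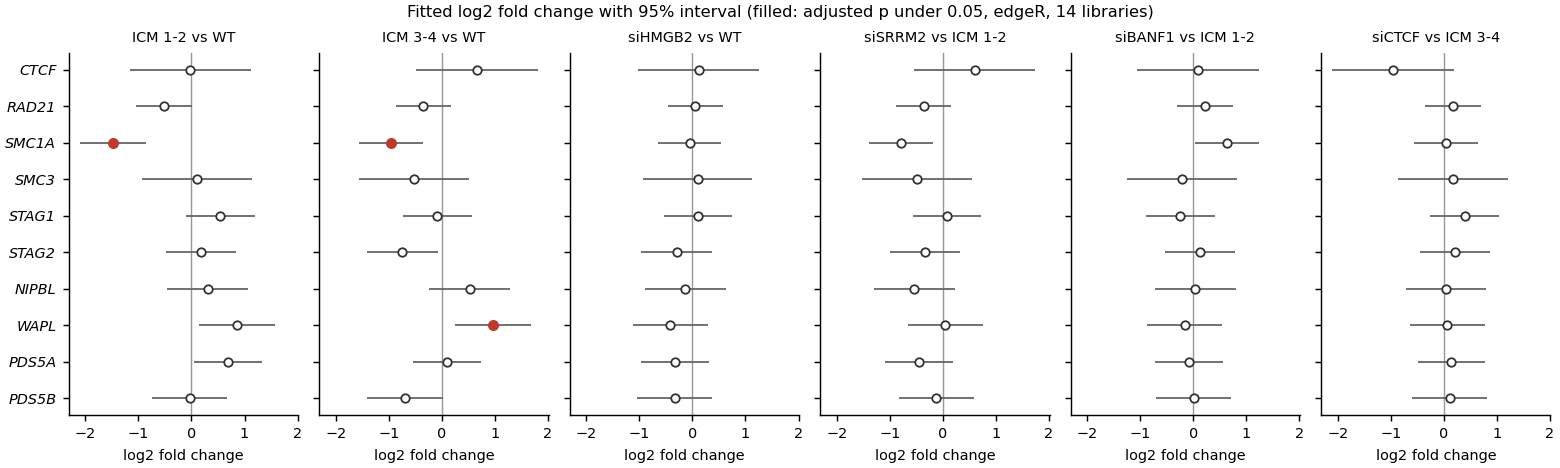
Fitted log2 fold change (x axis) of each gene (y axis) in 6 comparisons, 1 per panel, with the 95% interval as a line and filled points for an adjusted p under 0.05 by edgeR's quasi-likelihood test. The filled points are SMC1A in both comparisons of ICM with WT and WAPL in ICM 3-4 against WT.

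Seen together, the 10 genes gave 1 call in ICM 1 and 2 against WT, where 13.5% of all genes were called, 2 in ICM 3 and 4 against WT, where 30.3% were, and 0 in each of the other 5 comparisons. Neither count is above the share of all genes. Without regard to the test, 4 genes (STAG1, NIPBL, WAPL, PDS5A) were higher in both of ICM 1 and 2 than in both WT libraries, in CPM, where 32.3% of all genes were. RAD21 and SMC1A were lower, as 25.0% of all genes were. In ICM 3 and 4 the higher genes were CTCF and WAPL, against 42.6% of all genes, and the lower ones SMC1A, STAG2 and PDS5B, against 33.3%. SMC1A and WAPL were thus the genes that lay on the same side of WT in both sets, and the comparisons share the WT libraries. The share of all genes that did so, in both sets or in all treated libraries, is not given here. Whether this pattern is particular to SMC1A and WAPL was therefore not tested.

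In siHMGB2 SMC1A, STAG2, WAPL, PDS5A and PDS5B were below both WT libraries, 5 of 10 where 29.3% of all genes were lower, and CTCF was above, where 19.7% were higher. In the libraries labelled siSRRM2 RAD21, SMC1A, NIPBL and PDS5A lay below both ICM 1 and ICM 2, where 21.0% of all genes did, and CTCF above, where 20.5% did. In those labelled siBANF1 SMC1A was the only gene of the 10 without overlap, above its controls, where 6.24% of all genes were and 8.22% were below. The median log2 fold change of the 10 genes was 0.14 in ICM 1 and 2 against WT beside 0.10 for all genes, and -0.22 in ICM 3 and 4 beside -0.02. Scaling by total counts moved the median of all genes to 0.24 and 0.18 in these comparisons.

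Replicates differed widely in some groups. Between ICM 1 and ICM 2, 6 of the 10 genes differed by more than 1.5-fold in CPM (4 with TMM scaling), and 9 were higher in ICM 2, CTCF the most at 2.61-fold. Among 9201 genes averaging 10 CPM or more, 1092 were higher in ICM 2 by more than CTCF, with TMM scaling. The SD of the log2 ratio over these genes was 1.12, and between siBANF1 1 and 2 it was 1.17. The share of all genes that differed by more than 1.5-fold is not given here. Between siBANF1 1 and 2, 6 of the 10 differed by more than 1.5-fold (7 with TMM scaling), with CTCF at 2.04-fold and SMC3 at 2.05-fold. The direction was the same as in ICM for 7 of the 10, the exceptions being RAD21, SMC1A and NIPBL. Between ICM 3 and ICM 4, 6 differed by more than 1.5-fold (5 with TMM scaling), and between siCTCF 1 and siCTCF 2, 2 did, CTCF and SMC3. In CPM all 10 had the same direction in these last pairs, while with TMM scaling RAD21 went opposite ways, at 1.33-fold and 0.961-fold. None differed by that much between the libraries of WT, siHMGB2 or siSRRM2. What sets these libraries apart was not tested.

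Several genes that work with cohesin in the cell cycle fell with ICM. Of 11 listed cofactors 3 were called lower and 0 higher in ICM 1 and 2 against WT, with a median log2 fold change of -1.19 beside 0.10 for all genes, of which 6.87% were called lower. On the log2 scale these were SGO1, which protects cohesin at centromeres (-4.11), ESCO2, the acetyltransferase of SMC3 in S phase (-3.10), and CDCA5, or sororin, which opposes WAPL (-2.90). In ICM 3 and 4, where 16.0% of all genes were called lower, 4 were: SGO1, ESCO2 at -3.48, CHTF18 at -2.56 and CDCA5 at -1.49. SGO1 rested on 66 and 52 counts in WT, 4 and 7 in ICM 1 and 2 and 1 and 3 in ICM 3 and 4, and its ratio of CPM in ICM 3 and 4 to WT was 0.0482 (95% exact counting interval 0.0129 to 0.127). There 1 was called higher, as were 14.3% of all genes. It was MAU2, the partner of NIPBL in loading, at 1.58 (SE 0.33, adjusted p = 0.00702 by edgeR's quasi-likelihood test). CDCA5 was called higher in ICM 3 and 4 than in ICM 1 and 2 (8.53% of all genes), by 1.40. In fits to the compared libraries alone, 0 of the 11 were called in ICM 1 and 2 against WT, beside 0.173% of all genes. For ICM 3 and 4 against WT such a fit called 6 lower and 1 higher, beside 23.5% of all genes each. CDCA5 was not called in such a fit of the ICM sets (adjusted p = 0.241 by edgeR's quasi-likelihood test).

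Proliferation genes moved the same way as these cofactors. Of 10 listed, 7 were called lower in each comparison with WT, beside the same 6.87% and 16.0% of all genes, with median log2 fold changes of -3.24 and -3.65. MKI67, a marker of cycling cells, had 1099 and 1413 counts in WT, 53 and 14 in ICM 1 and 2, and 1 and 4 in ICM 3 and 4. CDK1, the kinase that drives mitosis, had 608 and 635 counts in WT, 11 and 11 in ICM 1 and 2, and 1 and 5 in ICM 3 and 4. MCM5 was called lower in ICM 3 and 4 than in ICM 1 and 2 (11.0% of all genes), at -0.87 on the log2 scale. In fits to the compared libraries alone, 2 of the 10 were called lower in ICM 1 and 2 against WT (0.0889% of all genes). For ICM 3 and 4 against WT such a fit called 9 lower (23.5% of all genes). MCM5 was not called in such a fit of the ICM sets (adjusted p = 0.343 by edgeR's quasi-likelihood test). The summed level of the 10 proliferation genes was 289.8 to 306 CPM in WT and siHMGB2, 66.3 to 215 CPM in ICM 1 and 2 and the libraries labelled siSRRM2 and siBANF1, and 130.01 to 169 CPM in the rest. Its part in the changes of the cohesin genes was not tested, and in bulk RNA fewer cells of a kind and less RNA per cell cannot be told apart.

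Condensin, the related complex that compacts mitotic chromosomes, had 2 of 8 subunits called lower in ICM 1 and 2 (6.87% of all genes), NCAPH at -4.93 and NCAPG at -4.40 on the log2 scale, and 4 in ICM 3 and 4 (16.0% of all genes), where NCAPH was at -4.50. None was called higher, and NCAPG2 was called lower in ICM 3 and 4 than in ICM 1 and 2 (11.0% of all genes), at -2.33. Of the SMC5/6 complex and SMCHD1, 7 of 8 genes were tested. SLF2 was called higher in ICM 1 and 2 at 1.18 (6.63% of all genes). SMC6 at -1.46 and NSMCE4A at -0.91 were called lower in ICM 3 and 4 (16.0% of all genes). SMC6 was also called lower in ICM 3 and 4 than in ICM 1 and 2, by -1.63. In fits to the compared libraries alone, no gene of these lists was called in ICM 1 and 2 against WT or between the ICM sets. For ICM 3 and 4 against WT such a fit called 5 condensin subunits, SMC6 and NSMCE4A lower, beside 23.5% of all genes.

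Of 9 factors known at CTCF sites or domain borders, PATZ1 was called lower in both comparisons with WT, at -1.29 and -0.99 on the log2 scale. For ICM 3 and 4, ZNF143, a zinc finger protein of promoters and loop anchors, was called higher at 1.62 and CHD8, a chromatin remodeller that binds CTCF, at 1.01, while TOP2B was called lower at -0.82. Of all genes, 6.87% were called lower in ICM 1 and 2, and 14.3% were called higher and 16.0% lower in ICM 3 and 4. In the fit to ICM 1 and 2 and WT alone, PATZ1 was not called (adjusted p = 0.18 by edgeR's quasi-likelihood test). In the fit to ICM 3 and 4 and WT alone, PATZ1, ZNF143, CHD8 and TOP2B were called in the same directions. Of 5 paralogs used in the germ line, 2 had enough counts to be tested. Neither was called against WT, and RAD21L1 was called lower in ICM 3 and 4 than in ICM 1 and 2 (11.0% of all genes). It had 1 and 2 counts against 28 and 38, a ratio of CPM of 0.0951 (95% exact counting interval 0.0191 to 0.290). In the fit to the ICM libraries alone RAD21L1 was not called (adjusted p = 0.131 by edgeR's quasi-likelihood test). In the fit to all 14 libraries no gene of these lists was called by edgeR's quasi-likelihood test in siHMGB2, the libraries labelled siSRRM2 or siBANF1, or siCTCF. In the fit to WT and siHMGB2 alone, which called 6.03% of all genes higher, SMC6 at 0.70 (adjusted p = 4e-04, edgeR) and CCNA2, a cyclin, at 0.54 (adjusted p = 0.0112, edgeR) were called higher.

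The genes most like 3 of the members were found by the root mean square difference of centred log2 levels over the 14 libraries, among 9202 genes. For CTCF, whose own levels had an SD of 0.57 on that scale, the nearest was CCDC59 at 0.33, followed by RPL26L1 and POLD2, both at 0.42. RAD21 had closer neighbours, FMR1 and MED14 at 0.14 and NPEPPS at 0.15, beside an SD of 0.33. NIPBL was nearest to SETD2, PAN3 and MYSM1, all at 0.16, beside an SD of 0.38. The libraries share depth and composition by set, so such likeness describes these 14 libraries only.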

How the data were processed

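The 10 genes, the gene lists and the tests were chosen with earlier results of these data known. The authors deposited a file of raw read counts by gene symbol for each library. The authors used STAR 2.7.3a, HTSeq 0.12.4, DESeq2 1.36.0 and the build hg38, per the submitters' processing notes. The annotation release and strand setting are not given in the sources used here. The 5 lines for reads in no gene, 12.8% to 41.8% of a library, entered neither totals nor tests.

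filterByExpr kept 19126 genes. Their counts, with TMM scaling, went into the quasi-likelihood test in edgeR 4.0.16 (R 4.3.3). All 14 libraries entered 1 fit with 7 group means and 7 residual degrees of freedom, and an adjusted p under 0.05 (Benjamini-Hochberg over all genes) was a call. The SE is that of the log2 fold change. CPM uses totals over genes. Levels per kilobase use the union of exons in GENCODE v29 (GRCh38), which also gave the coordinates. Promoters are those of RefSeq. Likeness used log2 of TMM-scaled CPM plus 1, for genes averaging 10 CPM or more. The fit was also run on simulated counts with the same spread in every group. That run cannot judge the fit where groups differ in spread, as they do here.

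Genes were named as the 10 members, the called gene with the highest and lowest change in each list and comparison, and the 3 nearest genes of CTCF, RAD21 and NIPBL. A further few, TOP2B, CHD8, NCAPG, NSMCE4A, CHTF18, ESCO2 and CDCA5, were named after their values were seen. Alternatives were other scalings and filters, DESeq2 1.42.0, smaller fits of only the compared groups, a replicate block, all 4 ICM libraries as 1 group, and leaving out each library. A crossed block and a fit to WT, siHMGB2, ICM 3 and 4 and siCTCF were added once the data had been seen. Python 3.11.15 was used for the rest.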

Additional observations from a re-analysis of the deposited data

How the results depend on the processing

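Over 840 alternative values of the 70 fold changes of single genes, no called value changed sign. Of uncalled values, 76 changed sign within 1 SE of 0, and 3 turned from further out: NIPBL in ICM 3-4 against WT (-0.12 to 0.97 across left-out libraries), STAG2 in the siSRRM2 comparison with all 4 ICM libraries (0.051) and SMC3 there (-0.85 to 3e-04 across left-out libraries). In all, 14 calls were lost and 15 gained. Of the 10 genes, ICM 1-2 against WT gave 1 call, 2 by DESeq2, 0 in the fit to the compared libraries only and 0 to 2 with a library left out. ICM 3-4 against WT gave 2 calls, 1 with total count scaling (WAPL) and 0 to 1 with a library left out. ICM 3-4 against ICM 1-2 gave 0 calls, 1 (STAG2) with relative log expression scaling, a mean of at least 1 CPM or DESeq2, and 0 to 1 with a library left out. In siHMGB2 against WT 0 became 1 (WAPL) in the fit to the compared libraries only. The siSRRM2 and siBANF1 comparisons gave 0 of the 10 in each alternative run. The cause of these moves was not tested, beyond the fewer libraries of the smaller fits. A fit with a library left out has 1 library in that arm, assumed to vary like the other groups, so a lost call there is no sign that a change is absent.

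With replicate numbers as a block (siCTCF 1 with ICM 3, siCTCF 2 with ICM 4; ICM 3 and 4 with WT 1 and 2), calls among the 10 were 0 in ICM 1-2 against WT, 5 in ICM 3-4 against WT (CTCF, PDS5B, SMC1A, STAG2 and WAPL), 1 in siHMGB2 (WAPL), 0 in siSRRM2 and siBANF1, and 1 in siCTCF. That 1 was CTCF at -1.16 (SE 0.13, adjusted p = 2.92e-16 by edgeR's quasi-likelihood test), although its pairs stood at 75.4% and 25.0%. The same fits called 1445, 8872, 2293, 103, 1 and 4 of all genes. Deviations of same-numbered libraries correlated at -0.25 in ICM 1-2 and WT, 0.16 in ICM 3-4 and WT, 0.17 in siHMGB2, 0.12 in siSRRM2, 0.87 in siBANF1 and 0.87 in siCTCF, and no label says that a number marks a shared culture. With the numbers crossed in ICM 1-2 against WT, 0 of the 10 and 1540 of all genes were called.

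Counts over all genes moved further. ICM 1-2 against WT gave 2582 calls, 3883 with no filter, 4010 by DESeq2, 33 in the compared libraries only and 545 to 3612 with a library left out. ICM 3-4 against WT gave 5797, 8993 in the compared libraries only, 9486 in the added fit and 1922 to 2602 with a library left out. Of the 10, the fit to the compared libraries only called CTCF, SMC1A and WAPL there, and the added fit called 3 (PDS5B, SMC1A, WAPL). ICM 3-4 against ICM 1-2 gave 3738, 239 and 1206 to 6059 likewise. For siHMGB2 the count went from 0 to 94 (no filter), 73 (DESeq2), 2055 (compared libraries only) and 77 (added fit). For siSRRM2 it went from 34 to 1 (total counts), 814 (no filter), 54 (1 CPM), 727 (DESeq2), 0 (compared libraries only) and 1 to 47. For siBANF1 it went from 0 to 161 (no filter), 17 (DESeq2) and 0 to 81. The lowest count of a member was 615, and among the listed genes few counts limit SGO1, MKI67, CDK1 and RAD21L1.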
